A study of Mus musculus with 10 samples.

Results

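The genes described here are 37 genes of the NF-κB system: 5 Rel family subunits, 6 IκB family members, 7 feedback and ubiquitin regulators, 5 signal relay and transcription genes, 6 surface and secreted products, and 8 survival and other target genes. Each was read from the probe set that the platform annotation maps to that gene symbol alone, or from the brightest such probe set on average where a gene had more than 1. Of the 37 genes, 35 were measured among the 19937 named genes of the array, while *Nfkb1* and *Ripk2* were not analysed here. The measurements are log2 signals after robust multi-array averaging (RMA). A gene was called above background on an array when it exceeded the 95th percentile of 1027 olfactory receptor genes there, which lay between 5.56 and 5.78. By this rule, 34 of the 35 genes were above background on at least 1 array and 27 were on all 10.

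NF-κB dimers of Rel family proteins are held in the cytoplasm by IκB proteins until IκB kinases mark these for degradation, after which the dimers enter the nucleus and bind κB sites. Many of the genes they switch on encode their own inhibitors, so that the system restrains itself. In myeloid cells the pathway is driven by LPS through Toll-like receptor 4 and by other receptors, including the high-affinity IgE receptor, and SLPI, a secreted inhibitor of serine proteases, has been described in monocytic cells as limiting NF-κB activity.

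The samples were C57BL6/N bone marrow (BM) cells, grown into BM-derived eosinophils (BMEos), BM-derived basophils (BMBs) and mast cells, of Slpi-/- or wildtype genotype. The 5 settings were BMEos kept for 3 h with LPS, BMEos without it, BMBs loaded with anti-TNP-IgE (1 h) before 12 h with TNP-ovalbumin (IgE), BMBs without this, and unstimulated mast cells. Each setting had 1 Slpi-/- and 1 wildtype array, 10 arrays in all, so a stimulus was tested over the 2 genotypes as its pairs. Slpi-/- cells lack the gene in every lineage, the BMEos were grown with Flt3 ligand and stem cell factor and then IL-5, and the other cells with IL-3. No source used here says how many mice or cultures stand behind an array, so the p-values measure only the spread between these arrays.

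The array medians lay between 5.85 and 5.94. *Slpi* had signals of 5.93 to 6.55 on the Slpi-/- BMEos and BMB arrays, against 7.96 to 11.42 on the wildtype ones, while in mast cells it read 6.47 in Slpi-/- and 6.53 in wildtype cells and gives no check of the label. Eosinophil markers marked the BMEos (5 of 5 measured above background on all 4 arrays). Basophil markers were above background in BMBs (5 of 5 on all 4 arrays), and 3 of 5 were in mast cells. Of 6 mast cell markers, 4 were above background in mast cells, and 4 in BMBs with and without IgE. BMBs and mast cells differed in level. In unstimulated BMBs 4 of 5 basophil markers were higher than in mast cells and 1 was lower (limma, adjusted p under 0.05). Of 5 mast cell markers tested, 0 were higher and 4 were lower in BMBs. On the 2 LPS arrays the X-linked *Xist* read 9.66 and 9.72, and the Y-linked *Eif2s3y* 3.54 and 3.22, in Slpi-/- and wildtype cells in that order, whereas on the other 8 arrays *Xist* was at most 4.90 and *Eif2s3y* at least 7.62. The LPS arrays and the unstimulated BMEos arrays therefore came from different mice. LPS cannot be told apart from the sex, the source mice and the cultures of these cells. None of the NF-κB genes lies on a sex chromosome (0 of 35), but genes on other chromosomes can differ by sex, and the part of sex was not tested.

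In BMEos, 26 of the 34 NF-κB genes tested were higher with LPS and 1 was lower, at an adjusted p under 0.05 in limma. The background over all 13571 genes tested was 12.7% higher and 16.2% lower. The median difference of the 34 genes was 1.16 on the log2 scale, and that of all genes was 0.02. Of the 26 genes, 20 were at least 2-fold and 9 at least 4-fold higher, with *Traf1* and *Tnip3*, not above background without LPS, taken at their lower bounds (the median of the 34 genes was then 1.14). The methods' paired t-test, with 1 degree of freedom, called 0 of them after adjustment. In the plot of the signals by array, the LPS symbols stand to the right of the unstimulated ones in nearly every row of the BMEos panel, and mix with them in the BMB panel.

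**Figure D1:**
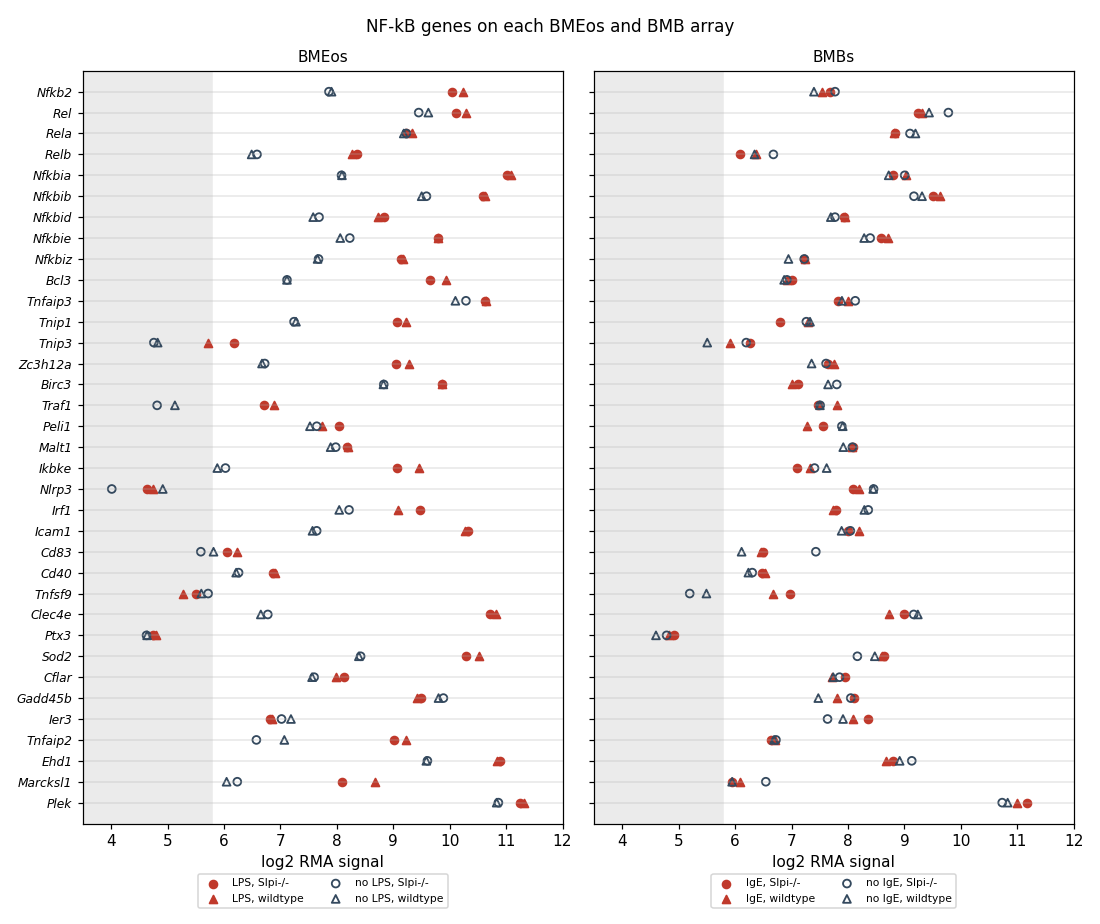
Log2 RMA signal (horizontal axis) of the 35 measured NF-κB genes on the 4 BMEos arrays (left) and the 4 BMB arrays (right), 1 symbol per array; circles are Slpi-/- and triangles wildtype, filled symbols are stimulated and open symbols unstimulated. The grey band ends at the highest background of any array, 5.78, and *Clec4e*, *Ikbke* and *Nfkbia* show the widest gaps between LPS and no LPS.

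The Rel family subunits form the dimers themselves, and 3 of the 4 measured rose with LPS. *Nfkb2* (gene ID 18034, chromosome 19), which encodes the p100 precursor of p52, had a signal of 10.05 with LPS and 7.86 without in Slpi-/- BMEos, and of 10.24 with and 7.91 without in wildtype BMEos. *Relb*, the partner of p52 in the non-canonical pathway, read 8.37 with LPS and 6.59 without in Slpi-/- BMEos, and 8.27 with and 6.49 without in wildtype BMEos. Both genes were thus higher on each LPS array than on either unstimulated one, by 2.26 ± 0.11 (*Nfkb2*, log2 difference ± SE, adjusted p = 6.3e-05 in limma) and 1.78 ± 0.15 (*Relb*, adjusted p = 0.00053). *Rel*, which encodes c-Rel, rose less, by 0.67 ± 0.12 (adjusted p = 0.01). *Rela*, which encodes the p65 subunit of the canonical dimer, had signals of 9.23 with LPS and 9.23 without in Slpi-/- cells, and of 9.33 with and 9.19 without in wildtype cells. Its difference of 0.07 ± 0.10 did not pass the test (adjusted p = 0.61).

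The 6 IκB family genes, which encode the proteins that retain the dimers in the cytoplasm or bind them in the nucleus, all rose with LPS, with a median of 1.57. *Nfkbia* (gene ID 18035, chromosome 12), the gene of IκBα, had signals of 11.02 with LPS and 8.08 without in Slpi-/- BMEos, and of 11.10 with and 8.09 without in wildtype BMEos. The 4 arrays fell into 2 tight pairs far apart, a 7.83-fold difference (2.97 ± 0.14, adjusted p = 6.1e-05 in limma). *Bcl3*, a nuclear IκB protein that acts with p50 and p52 homodimers, read 9.65 with LPS and 7.12 without in Slpi-/- cells, and 9.94 with and 7.12 without in wildtype cells (2.68 ± 0.11, adjusted p = 3.7e-05). The other IκB family genes rose by less. *Nfkbie* (IκBε) rose by 1.64 ± 0.11, *Nfkbiz* (the nuclear IκBζ) by 1.49 ± 0.11, *Nfkbid* (IκBNS) by 1.15 ± 0.09 and *Nfkbib* (IκBβ) by 1.06 ± 0.09. Their adjusted p lay between 0.00022 and 0.00062 in limma.

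Among the 7 feedback and ubiquitin regulators, 6 rose. *Zc3h12a*, which encodes the RNase Regnase-1 that degrades cytokine mRNAs, read 9.05 with LPS and 6.72 without in Slpi-/- BMEos, and 9.28 with and 6.67 without in wildtype BMEos (2.47 ± 0.13, adjusted p = 8.7e-05 in limma). *Tnip1* (ABIN-1), which partners the A20 deubiquitinase, rose by 1.89 ± 0.13, and *Birc3* (cIAP2), a ubiquitin ligase of the TNF receptor pathway, by 1.04 ± 0.09. *Traf1*, an adaptor that works with cIAP2, was not above background in unstimulated BMEos (4.82 in Slpi-/- and 5.13 in wildtype cells) and read 6.70 and 6.90 with LPS, so that its level was at least 2.19-fold higher (adjusted p = 0.00019). *Tnip3* (ABIN-3) was likewise not above background without LPS, and its bound was at least 1.22-fold higher with LPS (adjusted p = 0.0028). "At least" folds set the mean of the brighter arrays against the background of the dimmer ones.

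*Tnfaip3*, the A20 gene, was already high in unstimulated BMEos. It read 10.63 with LPS and 10.29 without in Slpi-/- cells, and 10.64 with and 10.10 without in wildtype cells. The difference of 0.44 ± 0.13 was close to the threshold (adjusted p = 0.046) and was lost under median centring, under quantile normalization, without a signal filter, and when either genotype was left out. *Peli1*, a ubiquitin ligase of the receptor proximal pathway, had signals of 8.03 with LPS and 7.64 without in Slpi-/- cells, and of 7.74 with and 7.52 without in wildtype cells, and did not pass (0.30 ± 0.11, adjusted p = 0.096).

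Of the 4 signal relay and transcription genes measured, 2 rose with LPS. *Ikbke*, the gene of the IκB kinase relative IKKε, had the next largest difference after *Clec4e*, with 9.06 with LPS and 6.03 without in Slpi-/- BMEos, and 9.45 with and 5.88 without in wildtype BMEos (9.86-fold, 3.30 ± 0.14, adjusted p = 4.2e-05 in limma). *Irf1*, an interferon regulatory factor gene, read 9.48 with LPS and 8.22 without in Slpi-/- cells, and 9.08 with and 8.04 without in wildtype cells (1.15 ± 0.10, adjusted p = 0.00061). *Malt1*, the gene of a paracaspase that relays antigen and Fc receptor signals, did not pass (0.25 ± 0.10, adjusted p = 0.10), and *Nlrp3*, an inflammasome sensor gene, was not above background on any of the 4 BMEos arrays.

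Among the 5 surface and secreted products tested, 3 rose. *Clec4e* (Mincle, a C-type lectin receptor of mycobacterial glycolipids) read 10.71 with LPS and 6.78 without in Slpi-/- BMEos, and 10.82 with and 6.65 without in wildtype BMEos, a 16.5-fold difference and the largest of the 34 genes (4.05 ± 0.12, adjusted p = 1.3e-05 in limma). *Icam1*, an adhesion molecule and ligand of leukocyte integrins, read 10.33 with and 7.64 without in Slpi-/- cells, and 10.28 with and 7.57 without in wildtype cells (2.70 ± 0.11, adjusted p = 4.2e-05). *Cd40*, the co-stimulatory receptor, rose by 0.64 ± 0.09 (adjusted p = 0.0044). *Cd83*, a maturation marker of dendritic cells, did not pass (0.44 ± 0.27, adjusted p = 0.26). *Tnfsf9* (4-1BB ligand) was not above background on either LPS array, and *Ptx3*, the gene of the soluble pattern receptor pentraxin 3, was not above background on any of the 10 arrays and was not tested.

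Of the 8 survival and other target genes, 6 rose and 1 fell. *Tnfaip2* rose by 2.29 ± 0.11 (adjusted p = 6.4e-05 in limma), *Marcksl1*, an actin regulator gene, by 2.25 ± 0.23 (adjusted p = 0.001), and *Sod2*, the mitochondrial superoxide dismutase gene, by 2.0 ± 0.12 (adjusted p = 0.00018). *Ehd1*, which acts in endosomal recycling, rose by 1.27 ± 0.09, and smaller rises were seen for *Cflar* (cFLIP, an inhibitor of caspase-8), by 0.48 ± 0.10, and *Plek* (pleckstrin), by 0.44 ± 0.11. *Gadd45b*, a stress-response gene, was the one that fell. It had signals of 9.49 with LPS and 9.89 without in Slpi-/- cells, and of 9.42 with and 9.80 without in wildtype cells (-0.39 ± 0.11, adjusted p = 0.035). *Ier3*, an immediate early gene, had a difference of -0.27 ± 0.14 (adjusted p = 0.19). Of the calls with LPS, those of *Rel*, *Cflar*, *Plek*, *Tnfaip3* and *Gadd45b* were lost when either genotype was left out, and that of *Cd40* without the wildtype pair.

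Markers of other cell types moved with LPS in both directions (limma, adjusted p under 0.05). Of 5 macrophage and monocyte markers tested 3 rose and 0 fell, of 7 neutrophil markers 0 rose and 2 fell, of 6 dendritic markers 2 rose and 1 fell, and of 3 megakaryocyte and erythroid markers 1 rose and 0 fell. In Slpi-/- BMEos the summed level (log2) was 12.85 with LPS and 12.38 without for the 7 macrophage markers measured, 11.32 and 11.69 for the neutrophil, 9.71 and 10.28 for the dendritic and 10.15 and 9.96 for the megakaryocyte markers. In wildtype BMEos it was 12.90 with LPS and 12.36 without, 11.57 and 11.98, 9.59 and 10.04, and 10.10 and 9.91 in the same order of lists. *Csf1r* rose by 0.83 ± 0.22 and *Pf4* by 1.86 ± 0.34, while *Cxcr2* fell by 1.30 ± 0.10 and *Itgax* fell by 1.06 ± 0.12, and the macrophage genes *C1qc* and *Marco* were not above background on any array. The part of these markers in the LPS differences was not tested. In a mixed culture, fewer cells of a type and less RNA per cell cannot be told apart.

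RefSeq (GRCm38.p6) gives a window from 250 bases before to 50 bases after the start site for 28 of the 37 genes. The κB consensus, read here as 3 guanines, a purine, any 2 bases, 2 pyrimidines and 2 cytosines on either strand, occurred in the window of 15 of these 28 genes (53.6%), against 12.5% of the 10772 tested genes with a window and 9.55% of all 27025 genes with one. It occurred in 12 of the 22 NF-κB genes with a window that rose with LPS (54.5%), in 2 of the 5 others that were tested (40.0%), and in 219 of the 1366 genes of the whole array that rose with LPS (16.0%). The median GC content was 61.3% in the windows of the NF-κB genes and 60.3% in those of all tested genes. A match is a description of the letters, not a bound site, and a window without one says only that these letters are not in it. The genes were listed as parts and targets of the NF-κB system, so their share beside that of all genes is not independent of the list.

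**Figure D2:**
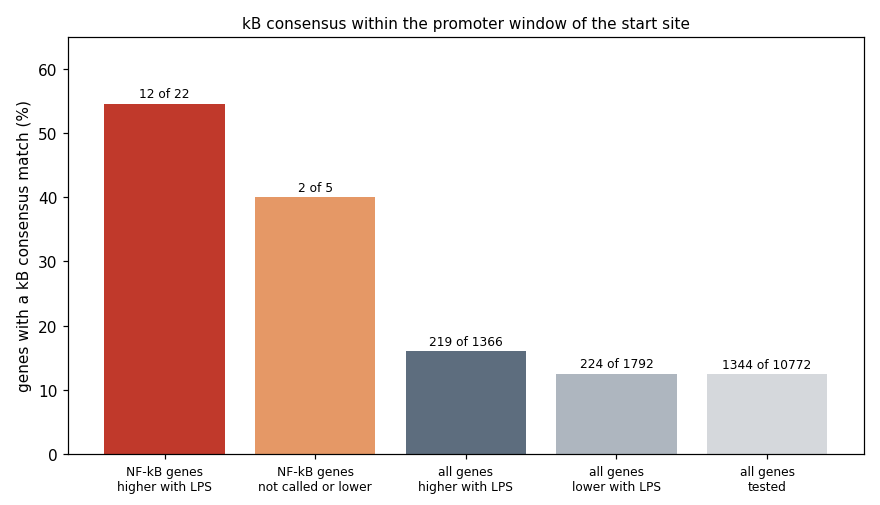
Percent of genes (vertical axis) whose promoter window holds at least 1 match to the κB consensus, for the NF-κB genes that rose with LPS in BMEos, the other NF-κB genes tested, and all genes that rose, fell or were tested. The numbers above the bars are genes with a match of genes with a window: 12 of 22 for the NF-κB genes that rose, against 1344 of 10772 for all genes tested. The NF-κB genes were listed as parts and targets of that system, so these shares are not independent of the list.

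Of 11 NF-κB genes that rose with LPS and had a match upstream of a start site, 8 are shown as examples, with 1 match each, to set their letters side by side. They were chosen by hand after the values were seen and by no fixed rule. *Nfkb2* had 3 further upstream matches in its 3 windows and *Tnfaip3* had 1 more, and *Nfkbid*, *Irf1* and *Tnfaip2*, with upstream matches as well, are not shown. The sequences are written 5′ to 3′ on the strand of the gene with the match in capitals (overlapping matches are merged) and up to 20 bases on each side. *Nfkbia* (chr12:55492648-55492696, minus strand) carried it 29 bases before the start site, *Nfkb2* (chr19:46304678-46304728, plus strand) 39, *Rel* (chr11:23771031-23771081, minus strand) 92, *Nfkbie* (chr17:45555574-45555623, plus strand) 106, *Tnip1* (chr11:54962967-54963018, minus strand) 58, *Tnip3* (chr6:65590324-65590373, plus strand) 54, *Tnfaip3* (chr10:19015411-19015442, minus strand) 12 and *Sod2* (chr17:13007736-13007785, plus strand) 83.
Nfkbia: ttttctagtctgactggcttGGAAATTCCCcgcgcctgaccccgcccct
Nfkb2: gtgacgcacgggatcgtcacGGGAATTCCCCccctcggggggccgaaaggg
Rel: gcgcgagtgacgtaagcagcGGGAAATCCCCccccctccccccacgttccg
Nfkbie: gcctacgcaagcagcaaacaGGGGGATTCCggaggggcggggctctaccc
Tnip1: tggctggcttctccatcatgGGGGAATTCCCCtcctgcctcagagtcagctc
Tnip3: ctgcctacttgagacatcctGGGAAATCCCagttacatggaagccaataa
Tnfaip3: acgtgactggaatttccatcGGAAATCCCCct
Sod2: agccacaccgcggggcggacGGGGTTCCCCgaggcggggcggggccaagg
The capitals of *Nfkb2* and *Rel* each hold 2 overlapping matches, and those of *Tnip1* hold 3. Among the genes with the largest rises, *Clec4e*, *Ikbke* and *Icam1* had no match in their windows.

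In BMBs few of the NF-κB genes passed with IgE. Of the 34 genes, 1 was higher and 3 were lower at an adjusted p under 0.05 in limma, against a background of 12.2% higher and 10.6% lower over all genes. An unadjusted p under 0.05 in limma was found for 14 of the 34 genes and for 4722 of all 13571 genes. The median difference was 0.04, and that of all genes was -0.02. In wildtype BMBs alone it was 0.14, and in Slpi-/- BMBs alone -0.07, against -0.02 over all genes in each. *Tnfsf9*, the 4-1BB ligand gene, was the one that rose: it read 6.96 with IgE and 5.19 without in Slpi-/- BMBs, and 6.67 with and 5.49 without in wildtype BMBs. The unstimulated arrays were not above background, so the rise was at least 2.28-fold (adjusted p = 0.0019). The count of higher genes depended on the fit, with 4 under a variance trend and 5 without the genotype term, against 5 and 4 lower ones.

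*Birc3* read 7.11 with IgE and 7.80 without in Slpi-/- BMBs, and 7.01 with and 7.65 without in wildtype BMBs (-0.66 ± 0.09, adjusted p = 0.0047 in limma). *Irf1* read 7.79 with and 8.36 without in Slpi-/- cells, and 7.74 with and 8.29 without in wildtype cells (-0.56 ± 0.10, adjusted p = 0.011). *Peli1* read 7.56 with and 7.89 without in Slpi-/- cells, and 7.27 with and 7.91 without in wildtype cells (-0.48 ± 0.11, adjusted p = 0.028). In all 3 genes both IgE arrays lay below both unstimulated ones. The calls of *Irf1* and *Peli1* were lost when either genotype was left out, and that of *Irf1* also with the mean of its 2 probe sets.

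The 6 IκB family genes did not pass with IgE in the fit used here, and *Nfkbib* and *Nfkbie* passed only under alternative fits. The differences of the 6 genes were 0.05 to 0.33. In *Nfkbib*, *Nfkbid* and *Nfkbie* both IgE arrays lay above both unstimulated ones. *Nfkbia* read 8.80 with IgE and 9.0 without in Slpi-/- BMBs, and 9.03 with and 8.72 without in wildtype BMBs. Its groups overlapped, as did those of *Nfkb2*, *Bcl3* and *Icam1*. In the same comparison the summed level (log2) of the 7 neutrophil markers was 12.26 and 12.22 with IgE, against 13.22 and 13.11 without, in Slpi-/- and wildtype cells in that order. That of the 7 macrophage markers was 11.79 and 11.99 with IgE, against 11.12 and 11.59 without. The macrophage markers went both ways: of 5 tested, 1 rose and 1 fell (limma, adjusted p under 0.05), with a median of -0.45. In the same order of cells, *Adgre1* read 11.64 and 11.88 with IgE, against 10.82 and 11.33 without. *Csf1r* read 6.53 and 5.73 with IgE, against 6.78 and 6.92 without. The part of these markers was not tested.

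The responses to LPS in BMEos and to IgE in BMBs were then set against each other in the same fit, although cell type, stimulus and time (3 h and 12 h) differ together and cannot be told apart. The response to LPS exceeded that to IgE in 23 of the 34 genes and fell below it in 3, at an adjusted p under 0.05 in limma, against a background of 9.71% and 13.3% of all genes. The median difference between the responses was 1.35, and that of all genes was 0.03. All 6 IκB family genes were among the 23, as were *Nfkb2*, *Rel* and *Relb*, although the call of *Nfkbib* was lost without the wildtype pair of BMEos. The widest differences were those of *Clec4e* (4.39 ± 0.17, adjusted p = 7.1e-05), *Ikbke* (3.61 ± 0.20, adjusted p = 0.00021) and *Nfkbia* (2.92 ± 0.19, adjusted p = 0.00037). The 3 genes that leaned to IgE were *Tnfsf9* (adjusted p = 0.0031, no size given because neither the unstimulated BMB nor the LPS arrays were above background), *Ier3* (-0.72 ± 0.20, adjusted p = 0.047) and *Gadd45b* (-0.59 ± 0.15, adjusted p = 0.034). The calls of *Ier3* and *Gadd45b* were each lost when 3 of the 4 pairs were left out in turn, and that of *Tnfsf9* with none of them.

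**Figure D3:**
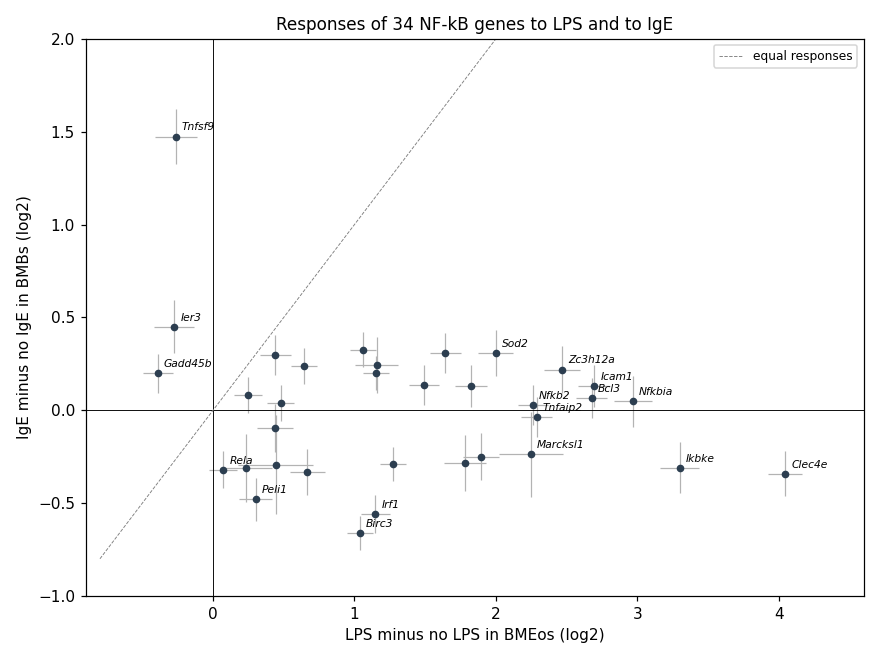
Response to LPS in BMEos (horizontal axis, log2 difference) and response to IgE in BMBs (vertical axis, log2 difference) of 34 NF-κB genes, with bars of 1 SE from limma; the dashed line marks equal responses. Most genes lie below the line near a zero response to IgE, with *Clec4e* farthest right at 4.05. The points of *Tnfsf9* (highest), *Traf1*, *Tnip3* and *Nlrp3* rest in part on arrays not above background, so their places are not exact sizes.

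*Birc3* and *Irf1* passed in both cells with opposite signs, higher with LPS and lower with IgE, and their responses differed by 1.70 ± 0.13 (*Birc3*, adjusted p = 0.00061 in limma) and 1.71 ± 0.14 (*Irf1*, adjusted p = 0.00082). Within each stimulus the genotypes gave their own values of the response. Across the 34 genes the response to LPS in Slpi-/- BMEos correlated with that in wildtype BMEos at r = 0.976, and the response to IgE in Slpi-/- BMBs with that in wildtype BMBs at r = 0.65 (genes are not independent replicates, and the 4 arrays of a cell type were normalized together). The sign of the response to LPS was the same in both genotypes in 33 of 35 genes, and that of the response to IgE in 24 of 35. These sign counts take in *Ptx3*, not above background on any array, and *Nlrp3*, not above background in BMEos. They were not set beside the share of all genes.

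The other genes of the pathway were read from 3 lists. Of 27 tested genes of the kinase and receptor relay, 10 rose and 3 fell with LPS, beside 12.7% and 16.2% of all genes. *Map3k8*, the Tpl2 kinase gene, was not above background without LPS and rose at least 5.93-fold (adjusted p = 3.3e-05 in limma). *Irak3* (IRAK-M), a brake on the Toll-like receptors, read 11.24 with LPS and 8.73 without in Slpi-/- BMEos, and 11.34 with and 8.81 without in wildtype BMEos (2.52 ± 0.10, adjusted p = 3.1e-05). *Traf5* fell by 0.84 ± 0.10 and *Map3k14*, the NIK kinase gene of the non-canonical pathway, fell by 0.75 ± 0.13. With IgE, 1 relay gene rose and 4 of the 27 fell, beside 12.2% and 10.6% of all genes. *Prkcb*, a protein kinase C gene, rose by 0.64 ± 0.09 (adjusted p = 0.005). *Ikbkb*, the IKKβ gene, had signals of 8.56 with IgE and 9.62 without in Slpi-/- BMBs, and of 8.59 with and 9.41 without in wildtype BMBs (-0.94 ± 0.10, adjusted p = 0.0025), and *Card9* fell by 0.61 ± 0.10.

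Of 15 further brakes, 2 rose with LPS and 0 fell, beside 12.7% and 16.2% of all genes, while with IgE 2 rose and 1 fell, beside 12.2% and 10.6%. *Socs1*, a suppressor of cytokine signalling, rose in both, by 0.61 ± 0.18 with LPS (adjusted p = 0.045 in limma) and by 1.27 ± 0.18 with IgE (adjusted p = 0.0049). *Cyld*, a deubiquitinase gene, rose by 0.46 ± 0.10 with LPS (adjusted p = 0.017) and fell by 0.68 ± 0.10 with IgE (adjusted p = 0.0058). *Sigirr*, an inhibitory receptor gene of the IL-1 family, rose by 0.39 ± 0.09 with IgE (adjusted p = 0.027).

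The 21 other target genes tested, mostly cytokines and chemokines, moved in both cells. With LPS 15 rose and 1 fell, beside 12.7% and 16.2% of all genes, and with IgE 10 rose and 0 fell, beside 12.2% and 10.6%. *Cxcl10* read 12.64 with LPS and 5.78 without in Slpi-/- BMEos, and 11.94 with and 5.59 without in wildtype BMEos (6.61 ± 0.14, adjusted p = 5.9e-06 in limma), and *Il6*, not above background without LPS, rose at least 20.9-fold (adjusted p = 1.1e-05). With IgE, *Il1b* read 10.91 with and 7.97 without in Slpi-/- BMBs, and 11.01 with and 8.18 without in wildtype BMBs (2.89 ± 0.15, adjusted p = 0.00036). *Ptgs2*, the COX-2 gene, rose by 2.69 ± 0.22 with IgE (adjusted p = 0.0014) and fell by 1.97 ± 0.22 with LPS (adjusted p = 0.0016). These lists, like the set itself, were drawn up with earlier results of these data known.

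In unstimulated cells each comparison of lineages had genes of the set that were higher and genes that were lower, as it had over the whole array. The counts of the set were not tested against that background. BMBs had 9 of the 34 genes higher and 9 lower than mast cells (background 18.8% and 17.9% of 12998 genes), BMEos had 7 higher and 10 lower than mast cells (24.3% and 26.8%), and BMEos had 5 higher and 11 lower than BMBs (18.6% and 21.2%), all at an adjusted p under 0.05 in limma. The 3 comparisons share arrays. The medians of the 34 differences were -0.03, 0.00 and -0.07, against -0.01, -0.04 and -0.03 over all genes.

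**Figure D4:**
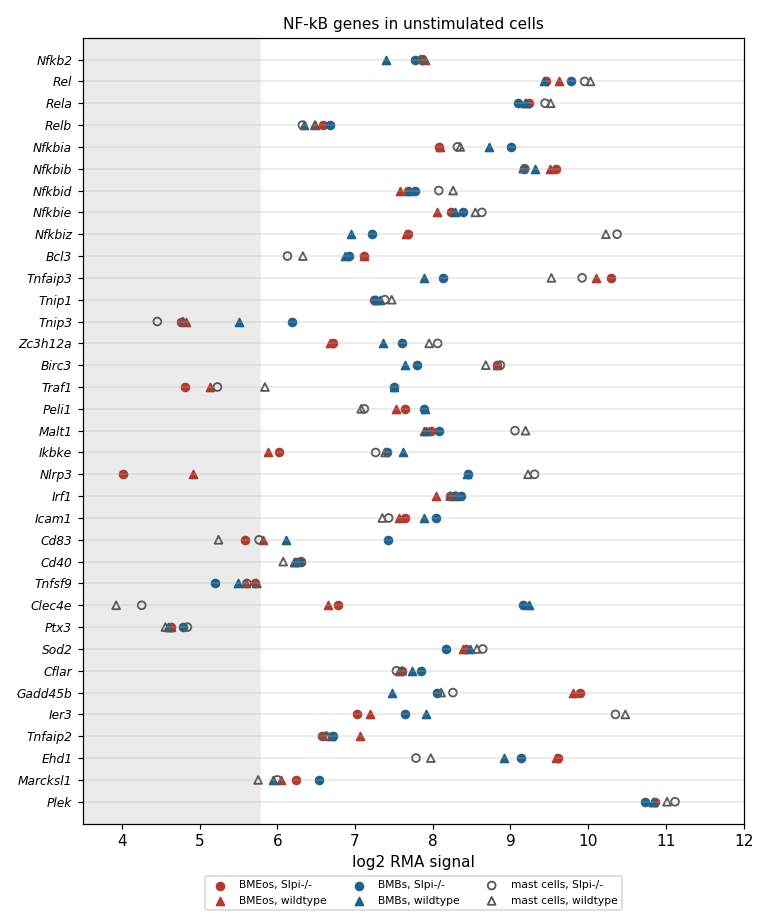
Log2 RMA signal (horizontal axis) of the 35 measured NF-κB genes on the 6 arrays of unstimulated BMEos, BMBs and mast cells, 1 symbol per array; circles are Slpi-/- and triangles wildtype. The grey band ends at the highest background, 5.78, and *Nfkbiz* and *Ier3* stand highest in mast cells, *Clec4e* in BMBs and *Gadd45b* in BMEos.

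Few of the subunits passed between cell types. *Rel* and *Rela* were lower than in mast cells in 1 comparison each, *Rel* in BMEos (-0.45 ± 0.14, adjusted p = 0.032 in limma) and *Rela* in BMBs (-0.33 ± 0.10, adjusted p = 0.035), and between BMEos and BMBs 0 of the 4 subunits passed. Both calls were lost without a filter on signal. Among the IκB family genes, *Nfkbiz* read 7.68 in Slpi-/- and 7.66 in wildtype BMEos. It read 7.22 and 6.94 in Slpi-/- and wildtype BMBs, against 10.37 and 10.23 in Slpi-/- and wildtype mast cells. Mast cells thus lay well above both other cells (BMEos -2.63 ± 0.11, adjusted p = 2.6e-06, BMBs -3.22 ± 0.11, adjusted p = 2.2e-06), and BMEos above BMBs (0.58 ± 0.11, adjusted p = 0.0046). *Nfkbia* read 8.08 in Slpi-/- and 8.09 in wildtype BMEos, and 9.0 in Slpi-/- and 8.72 in wildtype BMBs, against 8.32 in Slpi-/- and 8.35 in wildtype mast cells. It was highest in BMBs (0.53 ± 0.12 against mast cells, adjusted p = 0.011), while BMEos and mast cells did not pass against each other (-0.25 ± 0.12, adjusted p = 0.12). *Bcl3* was higher in BMEos (0.89 ± 0.11, adjusted p = 0.00044) and in BMBs (0.66 ± 0.11, adjusted p = 0.0029) than in mast cells.

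*Tnfaip3* read 10.29 in Slpi-/- and 10.10 in wildtype BMEos, and 8.13 in Slpi-/- and 7.89 in wildtype BMBs, against 9.92 in Slpi-/- and 9.53 in wildtype mast cells. The order was BMEos, mast cells, BMBs, and each step passed (BMEos minus mast cells 0.47 ± 0.10, adjusted p = 0.0073 in limma, BMBs minus mast cells -1.71 ± 0.10, adjusted p = 2.8e-05). *Birc3* was lowest in BMBs (-1.05 ± 0.10 against mast cells, adjusted p = 0.00024), with BMEos and mast cells not told apart (0.05 ± 0.10, adjusted p = 0.69). *Traf1* was above background on 0 of the 2 BMEos arrays, on both BMB arrays (7.51 in Slpi-/- and 7.5 in wildtype cells) and on the wildtype mast cell array (5.84), and was at least 3.58-fold lower in BMEos than in BMBs (adjusted p = 3e-05).

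*Nlrp3* was not above background in BMEos (4.01 in Slpi-/- and 4.92 in wildtype cells), whereas it read 8.45 in both Slpi-/- and wildtype BMBs, and 9.31 in Slpi-/- and 9.23 in wildtype mast cells. It was at least 12.2-fold lower in BMEos than in mast cells (adjusted p = 5.7e-06 in limma) and at least 6.89-fold lower than in BMBs (adjusted p = 2.7e-05). *Malt1* was lower in BMEos (-1.19 ± 0.11, adjusted p = 0.00013) and in BMBs (-1.13 ± 0.11, adjusted p = 0.00028) than in mast cells, and BMEos and BMBs did not pass against each other (-0.06 ± 0.11). *Ikbke* was lowest in BMEos (6.03 in Slpi-/- and 5.88 in wildtype cells, -1.37 ± 0.12 against mast cells, adjusted p = 8.5e-05).

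*Clec4e*, the gene with the widest response to LPS, differed between all 3 cell types. It read 6.78 in Slpi-/- and 6.65 in wildtype BMEos, and 9.16 in Slpi-/- and 9.24 in wildtype BMBs, and it was not above background in mast cells (4.26 in Slpi-/- and 3.93 in wildtype cells). BMBs were at least 11.1-fold (adjusted p = 7.1e-07 in limma) and BMEos at least 1.98-fold higher than mast cells (adjusted p = 4.7e-06), and BMEos were lower than BMBs (-2.49 ± 0.12, adjusted p = 1.3e-05). *Ier3* was highest in mast cells, with 7.02 in Slpi-/- and 7.19 in wildtype BMEos and 7.64 in Slpi-/- and 7.91 in wildtype BMBs, against 10.35 in Slpi-/- and 10.48 in wildtype mast cells. *Gadd45b* stood highest in BMEos (9.89 in Slpi-/- and 9.80 in wildtype cells), where it exceeded mast cells by 1.66 ± 0.14 (adjusted p = 7.4e-05) and BMBs by 2.09 ± 0.14 (adjusted p = 4.9e-05). *Ehd1* was highest in BMEos and lowest in mast cells, with each step passing. Markers of other cell types differed between these cells too. The summed level (log2) of the 7 neutrophil markers was 11.69 in Slpi-/- and 11.98 in wildtype BMEos and 13.22 and 13.11 in BMBs, against 8.10 and 8.12 in mast cells. That of the 7 macrophage markers was 12.38 and 12.36 in BMEos and 11.12 and 11.59 in BMBs, against 7.98 and 8.01 in mast cells, Slpi-/- given before wildtype. Their part in these differences was not tested.

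The loss of *Slpi* was read in 2 ways: by tests over the pairs of arrays, and in each setting alone. In BMEos over both LPS states, 0 of the 34 genes passed between Slpi-/- and wildtype cells (background 0.00737%, the 1 gene being *Slpi* itself). Of the 34, 3 had an unadjusted p under 0.05 in limma, as had 785 of all 13571 genes. In BMBs over both IgE states, 0 passed (background 0.00737%, again *Slpi*), and 4 had an unadjusted p under 0.05, as had 917 of all genes. Over all 5 settings, 0 passed (background 0%), and 2 had an unadjusted p under 0.05, as had 722 of all genes. *Slpi* itself, with a difference of -2.72, did not pass over the 5 settings. The smallest adjusted p among the 34 genes was 0.46, and the 95% intervals of their differences reached from -0.94 to 0.56 in BMEos, from -0.58 to 1.32 in BMBs and from -0.51 to 0.76 over the 5 settings.

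In a single setting there is 1 array per genotype and no test, so genes were counted by size, at least 1.5-fold and above background on 1 or both arrays. In BMEos 0 of 32 genes passed with LPS (background 1.42% of genes) and 0 of 31 without (0.73%). In BMBs 0 of 34 passed with IgE (2.55%) and 3 of 33 without (2.97%), and in mast cells 1 of 31 (0.945%). The 3 genes in unstimulated BMBs were all higher in Slpi-/- cells: *Cd83* read 7.43 in Slpi-/- and 6.11 in wildtype BMBs (a difference of 1.32), *Tnip3* 6.20 in Slpi-/- BMBs against a wildtype array not above background (at least 1.54-fold), and *Marcksl1* 6.54 in Slpi-/- and 5.95 in wildtype BMBs (0.60). None of these kept that size with IgE, where *Cd83* read 6.50 in Slpi-/- and 6.46 in wildtype BMBs. On the unstimulated pair the neutrophil markers went both ways. *Mpo*, *Ngp* and *Elane* read 6.0, 5.02 and 5.47 in Slpi-/- BMBs, against 8.84, 6.77 and 7.14 in wildtype BMBs. *Ly6g* and *Cxcr2* read 12.68 and 11.41 in Slpi-/- BMBs, against 12.38 and 11.42 in wildtype BMBs. The summed level (log2) of the 7 neutrophil markers was 13.22 in Slpi-/- and 13.11 in wildtype BMBs. That of the 7 dendritic markers was 9.22 in Slpi-/- and 8.83 in wildtype BMBs. *Itgax* and *H2-Ab1* read 7.12 and 7.82 in Slpi-/- BMBs, against 6.12 and 7.33 in wildtype BMBs. *Flt3* and *Cd209a* went the other way, with 5.53 and 5.31 in Slpi-/- BMBs, against 5.59 and 5.34 in wildtype BMBs. The part of these markers was not tested. The gene in mast cells was *Traf1*, and its count rests on a value not above background: it read 5.23 in Slpi-/- cells, where the background was 5.67, against 5.84 in wildtype cells, so that it was at least 1.12-fold lower.

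**Figure D5:**
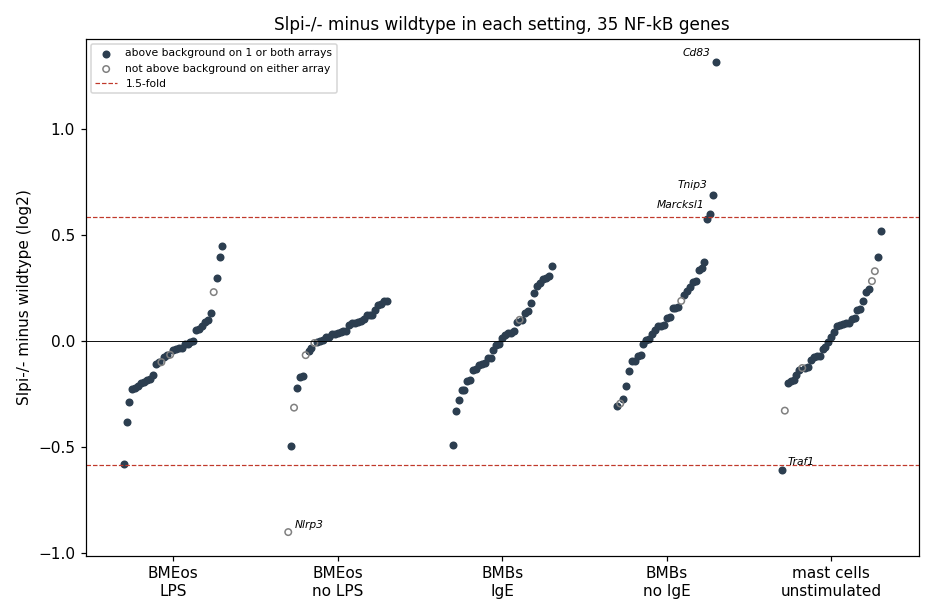
Slpi-/- minus wildtype difference (vertical axis, log2) of the 35 measured NF-κB genes in each of the 5 settings (horizontal axis), sorted within a setting; open symbols were not above background on either array of the pair, and dashed lines mark 1.5-fold. *Cd83* in unstimulated BMBs is the point farthest from zero, at 1.32.

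The size of the genotype difference was also set beside that of all genes. The median absolute difference of the NF-κB genes was 0.11 in BMEos with LPS and 0.09 without, 0.14 in BMBs with IgE and 0.15 without, and 0.11 in mast cells, against 0.11, 0.09, 0.10, 0.13 and 0.10 over all genes above background in these settings. With its sign kept, the median was -0.04 in BMEos with LPS and 0.045 without, against 0.002 and 0.006 over all genes. In BMBs the signed median was -0.001 with IgE and 0.107 without, against -0.01 and -0.031 over all genes. In mast cells it was 0.02, against -0.001. These medians were not tested. The inhibitor *Nfkbia* differed by -0.08 in BMEos with LPS, -0.01 without, -0.23 in BMBs with IgE, 0.28 without and -0.04 in mast cells. *Rela* differed by -0.10, 0.05, 0.03, -0.10 and -0.07 in the same order of settings.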

How the data were processed

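RNA of 10 BM-derived samples was hybridized to Affymetrix Mouse Gene 1.0 ST arrays, and the authors summarized the signals by RMA in the affy package. The deposited log2 values were used with no further normalization. Of 34760 probe sets, 21640 carry 1 gene symbol, 1321 several and 11799 none, and 21553 were matched by gene ID to RefSeq. Depth does not apply, and the number of arrays limits the precision.

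Groups came from the sample labels. Tests used limma 3.58.1 in R 4.3.3 (lmFit, eBayes, two-sided, Benjamini-Hochberg over all genes above background on at least 1 array used, threshold 0.05). The fit of 10 arrays had cell type by genotype means with LPS and IgE terms (2 residual degrees of freedom), a second had the 5 settings as blocks plus genotype (4), and the fit of the 6 unstimulated arrays had cell type and genotype (2). The LPS term of the fit of 10 arrays was tried on simulated data, and the other terms and fits were not. Per-setting genotype differences have no test.

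The members and lists were chosen with earlier results of these data known. All members are named, with, of each pathway list, the 2 largest called rises and falls per stimulus. Alternatives were array centring, quantile normalization, the mean of probe sets, no filter, a background at the 99th percentile, a variance trend, no genotype term, arrays of 1 cell type, the methods' t-test and leaving out pairs. Python 3.11.15 with pandas 2.3.3 and matplotlib 3.10.9 made the summaries and figures. Protein sequences were not used here.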

Additional observations from a re-analysis of the deposited data

Results flagged for a closer look

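By the test of the difference itself, the response to LPS in BMEos exceeded that to IgE in BMBs in 23 of the 34 genes. In 3 genes the response to IgE exceeded that to LPS. The background over all genes was 9.71% and 13.3%, in that order (limma, adjusted p under 0.05). Cell type, stimulus and time (3 h and 12 h) differ together, as does the sex of the LPS cells, and cannot be told apart. *Birc3*, the cIAP2 gene, and *Irf1*, the interferon regulatory factor gene, passed in both cells with opposite signs, and their responses differed by 1.70 (*Birc3*) and 1.71 (*Irf1*) on the log2 scale. The call of *Irf1* with IgE was lost when either genotype was left out.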

How the results depend on the processing

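No member passed between the genotypes in any test under any alternative run, but the test over the 5 settings given above did not call *Slpi* itself either. The counts of the cell type comparisons stayed within 1.5 times of the values given. With LPS, the count of higher members was 26, and 0 by the methods' t-test after adjustment, and the 1 lower member (*Gadd45b*) became 0 without a filter on signal, without the genotype term and by that t-test. Leaving out 1 genotype gave 22 higher and 0 lower members. With IgE, the 1 higher member became 2 with the background at the 99th percentile, 4 with the variance trend, 5 without the genotype term and 0 by the t-test, and 1 to 2 when a genotype was left out; the 3 lower members became 5, 5 and 0 with that background, the trend and the t-test, and 1 to 4 when a genotype was left out. Of the members leaning to IgE over LPS, 3 became 1 without a filter, and 1 to 2 when a genotype was left out, while 23 leaning to LPS became 21 to 24. The single-setting genotype counts of 3 (unstimulated BMBs) and 1 (mast cells) became 1 and 0 at a 2-fold minimum. Over all genes, the t-test called 0 for either stimulus, with 2460 (LPS) and 1516 (IgE) at an unadjusted p under 0.05. The labels number no replicates, so no fit used such a number, and the pairs are the 2 genotypes or the 2 states of a cell type. Leaving out a genotype from the unstimulated arrays leaves no residual degrees of freedom, so no count was made. Limits: each condition has 1 array, so every test borrows its spread from the other cells and genes.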
